A study of Mus musculus with 4 samples.

Results

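The MCM helicase family of 10 genes was described in single testis cells of a Znhit1 knockout mouse at postnatal day 35. Members were taken by gene symbol: Mcm2, Mcm3, Mcm4, Mcm5, Mcm6 and Mcm7, the replicative subunits, and Mcm8, Mcm9, Mcm10 and Mcmdc2. All 10 were found among the 32285 genes of the count matrix, and all 10 had enough counts to be compared. The study profiled testis cells with a droplet 3' kit in 4 libraries, 1 each for control and Znhit1_KO at postnatal days 16 and 35, to examine loss of ZNHIT1, a chromatin factor of the complex that deposits the histone variant H2A.Z. Only the matrix of the knockout at day 35 entered the work; the matrices of the remaining 3 libraries were not analysed here. The labels used here give the genotype as Znhit1_KO and name no allele, Cre driver or strain, and they do not say how many animals the library holds. No value below compares genotypes or ages, no test was made, and 95% intervals cover counting error only.

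The MCM2-7 proteins form the ring of the replicative DNA helicase. The ring is loaded on origins in G1 by ORC, CDC6 and CDT1 (licensing) and is switched on in S phase by CDC45 and GINS (firing). MCM10 is a replication factor needed for firing, MCM8 and MCM9 form a related helicase that acts in homologous recombination, and MCMDC2 is a divergent relative needed for meiotic recombination. In the testis, spermatogonia divide by mitosis, preleptotene spermatocytes pass through the last S phase before the meiotic divisions, and leptotene to pachytene spermatocytes pair and recombine their chromosomes without replicating them.

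The genes lie on 7 chromosomes of the mouse build mm10 (GENCODE M21), and all are protein coding. Mcmdc2 spans chr1:9908638-9942085, Mcm3 chr1:20802968-20820312 and Mcm6 chr1:128331590-128359664. Mcm10 spans chr2:4989714-5012791 and Mcm8 chr2:132816141-132844197. Mcm7 spans chr5:138164583-138172422, Mcm2 chr6:88883474-88898780, Mcm5 chr8:75109569-75128439, Mcm9 chr10:53536315-53630439 and Mcm4 chr16:15623897-15637400. The 3' end of Mcm7 overlaps that of Cops6, on the opposite strand, by 64 bases, and the 3' end of Mcmdc2 overlaps the non-coding gene Snhg6 by 127 bases, also on the opposite strand. Asf1a lies inside Mcm9 on the opposite strand. The sources used here do not say whether the counting used strand, so reads of these overlaps may be shared.

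Promoter windows from 250 bases before to 50 bases after the start site were taken from RefSeq (build GRCm38.p6), which had 8 of the 10 members. Each was searched on both strands for 4 spellings of the E2F site (TTTCCCGC, TTTCGCGC, TTTGCCGC and TTTGGCGC), since E2F factors are known to drive replication genes at the start of S phase. The search found a match in 5 of these 8 members, Mcm3, Mcm5, Mcm6, Mcm7 and Mcm8, against 2.26% of 32851 promoter windows of the same length. No match lay in the windows of Mcm2, Mcm9 and Mcm10, which says only that these letters are not there. The 250 bases before the start of 3 replicative genes are shown because Mcm5 and Mcm6 had one course along the germ clusters and Mcm7 another; matches are in capitals, and overlapping matches run together. The Mcm5 stretch is chr8:75109259-75109508 on the plus strand, the Mcm6 stretch chr1:128359706-128359955 on the minus strand, and the Mcm7 stretch chr5:138171884-138172133 on the minus strand.
Mcm5: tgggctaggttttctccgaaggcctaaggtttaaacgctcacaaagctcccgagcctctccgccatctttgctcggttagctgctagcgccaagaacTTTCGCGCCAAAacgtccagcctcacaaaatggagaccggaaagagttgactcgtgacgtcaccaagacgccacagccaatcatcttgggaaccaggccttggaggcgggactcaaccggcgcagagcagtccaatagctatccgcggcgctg
Mcm6: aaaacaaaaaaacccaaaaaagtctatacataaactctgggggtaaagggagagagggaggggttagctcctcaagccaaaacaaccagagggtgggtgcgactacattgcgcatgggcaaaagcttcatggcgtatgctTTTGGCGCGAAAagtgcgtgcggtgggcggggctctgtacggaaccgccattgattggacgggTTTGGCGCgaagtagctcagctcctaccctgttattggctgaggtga
Mcm7: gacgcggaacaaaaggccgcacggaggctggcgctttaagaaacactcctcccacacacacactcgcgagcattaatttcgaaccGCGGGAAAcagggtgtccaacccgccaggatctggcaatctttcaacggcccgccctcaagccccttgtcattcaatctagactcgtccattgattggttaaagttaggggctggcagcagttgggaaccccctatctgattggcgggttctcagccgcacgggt

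In Mcm5 a plus and a minus match overlapped between 153 and 142 bases before the start. In Mcm6 such a pair lay between 110 and 99 bases before the start and a further match between 47 and 40. In Mcm7 a match lay between 165 and 158 bases before the start. Further matches lay within 50 bases after the start in Mcm3, Mcm7 and Mcm8 and are shown with the bases next to them.
Mcm7 after the start: tgacgacgTTTCGCGCcaatttcg
Mcm3 after the start, nearer: cttccgtgGCGGGAAAacttggga
Mcm3 after the start, farther: tgggaagtTTTGGCGCcaag
Mcm8 after the start: tcatagacGCGCCAAAaaa
The letters CAACTG, a core that MYB factors bind, were found in Mcm2, Mcm7 and Mcm10, 3 of 8 members, against 13.7% of all windows. RefSeq gives Mcm7 a further start site, whose window held neither motif.

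A UMI is a random tag that lets each captured RNA molecule be counted once. The library's barcodes summed to 72459160 UMIs, and 7854 cells were used, with a median of 4607.5 UMIs. Of these, 4383 cells (55.8%) were germ-cell-like and 2690 (34.3%) somatic-like, and 781 cells (9.94%) of 3 clusters stayed unnamed. The germ-cell-like cells formed 10 clusters, numbered from 1 to 10 by their markers of spermatogonia and pachytene cells, with no MCM gene among the markers or in the clustering. Germ clusters 1 to 4 were spermatogonium-like (2129 cells), 5 to 8 early-prophase-like (1801) and 9 and 10 pachytene-like (453). Among the leading genes of cluster 1 was Gfra1, a marker of undifferentiated spermatogonia. Among those of cluster 4 was Stra8, the gene of meiotic entry, at 862 CPM (a gene's counts scaled to a total of 1000000 per cluster) against 207 in cluster 3 and 305 in cluster 5; its marker scores for spermatogonia and early prophase, 0.81 and 0.68, were close. Cluster 8 scored 0.80 for early prophase, near the naming limit of 0.75, and 0.56 for late spermatocytes. With a limit of 1, clusters 4 and 8 both stayed unnamed. Median UMIs per cell ranged from 3672 in cluster 3 to 20757 in cluster 10, so levels are given as CPM and, where it matters, as UMIs per cell. The 12 somatic reference genes together had 402, 493 and 315 CPM in spermatogonium-like, early-prophase-like and pachytene-like cells, against 8880 in somatic-like cells. Between 45 and 81 cell barcodes were shared by any pair of the 4 libraries. Znhit1 was measured at 2.49 CPM in the germ clusters together and at 15.8 CPM in the somatic ones; the labels do not give the deleted stretch, so a 3' count does not check the deletion.

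The replicative genes as a group were most abundant in spermatogonium-like cells and had 2 high points there. The 6 genes summed to 673 CPM (641 to 707) in cluster 1, 882 (861 to 904) in cluster 2, 483 (455 to 512) in cluster 3 and 686 (653 to 719) in the Stra8-high cluster 4. They then stood at 471 (443 to 500) in cluster 5, 377 (356 to 400) in cluster 6, 156 (139 to 174) in cluster 7 and 158 (142 to 175) in cluster 8. The pachytene-like clusters 9 and 10 had 313 (295 to 331) and 184 (170 to 198). The sum was thus lowest in clusters 7 and 8, whose intervals overlap, and higher again in cluster 9, where 1 gene, Mcm7, made most of it.

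**Figure D1:**
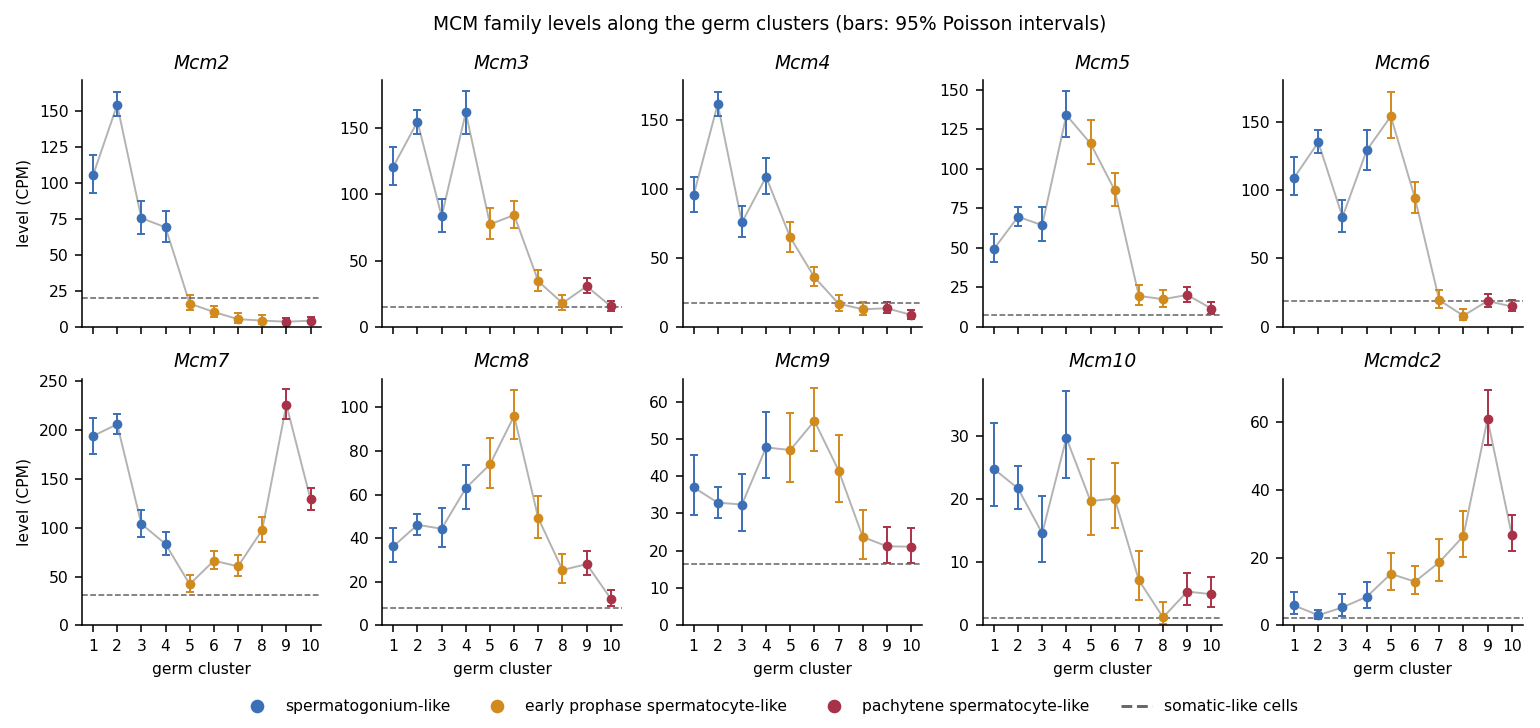
Level of each MCM gene (y axis, CPM, with 95% Poisson intervals) in the 10 germ clusters (x axis, ordered by stage markers; colours give the class), with the level in somatic-like cells as a dashed line. Mcm2 to Mcm6 and Mcm10 are low in clusters 7 to 10, Mcm8 and Mcm9 are highest in cluster 6, and Mcm7 and Mcmdc2 are highest in cluster 9.

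Mcm2 and Mcm4 were highest in the mitotic spermatogonium-like cluster 2. Mcm2, which carries a histone-binding tail, had 105, 154, 75.4 and 69.0 CPM in clusters 1 to 4, then 16.1, 10.2, 5.24 and 4.23 in clusters 5 to 8 and 3.48 and 4.17 in clusters 9 and 10. Of the replicative genes it differed most downward between clusters 4 and 5: cluster 5 stood at 0.234 of cluster 4 (0.158 to 0.336). From cluster 5 on its level was below the 19.9 CPM of somatic-like cells. Mcm4 had 95.5, 162, 75.8 and 109 CPM in clusters 1 to 4 and 64.9, 36.0, 16.7 and 12.7 in clusters 5 to 8. In clusters 9 and 10 it had 13.4 and 8.59.

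By CPM, Mcm3, Mcm5 and Mcm6 had their highest levels later, in the Stra8-high cluster or the next. Per cell each was highest in cluster 1, at 1.58, 0.643 and 1.43 UMIs. Against these stood 0.739 (Mcm3) and 0.613 (Mcm5) in cluster 4 and 0.757 (Mcm6) in cluster 5. Mcm3 had 121, 155, 83.4 and 162 CPM in clusters 1 to 4, 77.4, 84.4, 34.3 and 17.8 in clusters 5 to 8, and 30.6 and 15.4 in clusters 9 and 10. Its levels in clusters 4 and 2 did not differ beyond counting error (ratio 1.04, 0.929 to 1.17). Mcm5 had 49.2, 69.6, 64.3 and 134 CPM in clusters 1 to 4, 116, 86.4, 19.5 and 17.4 in clusters 5 to 8, and 20.1 and 11.5 in clusters 9 and 10, with clusters 4 and 5 alike within counting error (ratio 1.15, 0.976 to 1.36). The step of Mcm5 from cluster 3 to cluster 4, 2.08-fold (1.71 to 2.55), was the only one of the 6 to pass 2-fold there, where 9.70% of all genes did. Mcm6 had 109, 135, 80.3 and 129 CPM in clusters 1 to 4, 154, 94.0, 19.5 and 8.04 in clusters 5 to 8, and 18.8 and 14.8 in clusters 9 and 10. Between clusters 6 and 7 Mcm3, Mcm4, Mcm5 and Mcm6 all stood at least 2-fold lower, 4 of the 6 replicative genes against 9.26% of all genes. Cluster 7 had 0.226 of the Mcm5 level of cluster 6 (0.159 to 0.315) and 0.208 of its Mcm6 level (0.146 to 0.289).

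Mcm7 followed another course. It had 194, 206, 104 and 83.4 CPM in clusters 1 to 4, 42.1, 66.3, 60.5 and 97.8 in clusters 5 to 8, and 226 and 129 in clusters 9 and 10. It was thus lowest in cluster 5 (34.0 to 51.5), where Mcm6 was highest, and high again in cluster 9 (211 to 242), at 1.10 times the level of cluster 2 (1.01 to 1.19). Cluster 9 had 2.31 times the level of cluster 8 (2.0 to 2.69). Mcm6 was the only other replicative gene past 2-fold at this step, from 8.04 to 18.8 CPM on 19 and 70 UMIs (10.9% of all genes passed). Cops6, whose 3' end Mcm7 overlaps, had 117, 144, 129 and 75.4 CPM in clusters 1 to 4, 24.2, 46.5, 43.8 and 47.0 in clusters 5 to 8, and 46.4 and 93.0 in clusters 9 and 10. Like Mcm7 it was high in cluster 2 and lowest in cluster 5, and its ratios between classes lay on the same side of 1 (0.325 for early-prophase-like over spermatogonium-like and 1.71 for pachytene-like over early-prophase-like cells, against 0.4 and 2.64 for Mcm7). It differed in cluster 9, where Mcm7 was highest and Cops6 stood at about its level of cluster 8. How far the overlap bears on either count was not tested. Mcm7 is also the host of 3 miRNA genes, Mir25, Mir93 and Mir106b, which a 3' library does not measure.

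The make-up of the replicative UMIs therefore differed between stages. Mcm7 made 28.7% of them in cluster 1, 8.93% in cluster 5 and 72.4% in cluster 9, while Mcm2 made 15.6% in cluster 1, 17.5% in cluster 2 and 1.11% in cluster 9. Capture at 3' ends can differ between genes, so these shares are to be read across clusters and not between genes.

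**Figure D2:**
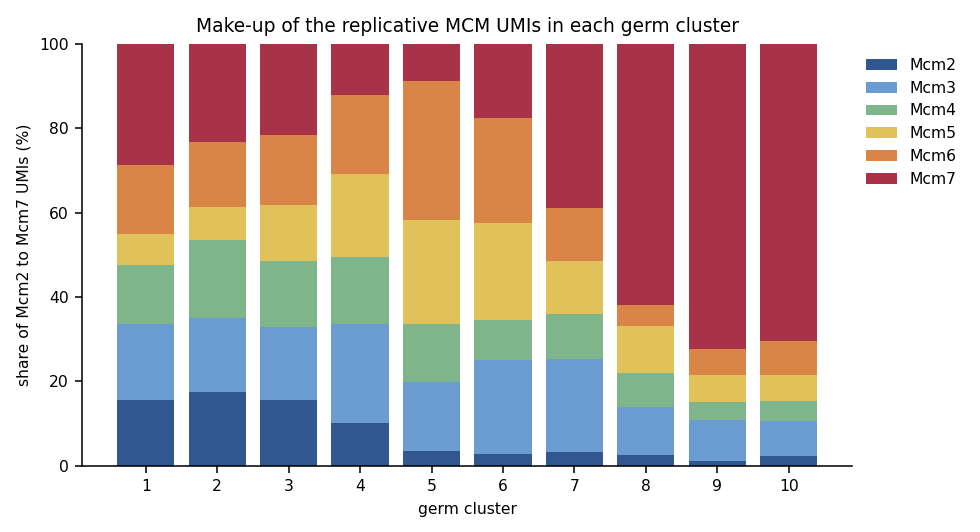
Share of the UMIs of Mcm2 to Mcm7 that each gene made (y axis, %) in the 10 germ clusters (x axis). The Mcm7 part is smallest in cluster 5 (8.93%) and largest in cluster 9 (72.4%).

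Counts per cell gave another order, because pachytene-like cells held 16712 UMIs on average against 5401 in early-prophase-like cells. The replicative genes summed to 8.80 UMIs per cell in cluster 1, 7.93 in cluster 2, 0.921 in cluster 7 and 4.38 in cluster 10. On the CPM scale pachytene-like cells stood below early-prophase-like cells (247 against 298 CPM, ratio 0.830, 0.783 to 0.880). Per cell they stood above them (4.13 against 1.61 UMIs, ratio 2.57). Mcm2, Mcm3, Mcm9 and Mcm10 also stood on opposite sides of 1 on these scales, with per-cell ratios of 1.31, 1.27, 1.54 and 1.26. No interval was made for per-cell ratios, and Mcm2 and Mcm10 had only 29 and 39 UMIs in pachytene-like cells. Mcm5 and Mcm6 were lower in pachytene-like cells on both scales (per-cell ratios 0.783 and 0.732), and Mcm7 and Mcmdc2 were higher on both (8.16 and 7.54). Mcm4 and Mcm8 were lower by CPM and about level per cell (1.03 and 0.976).

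**Figure D3:**
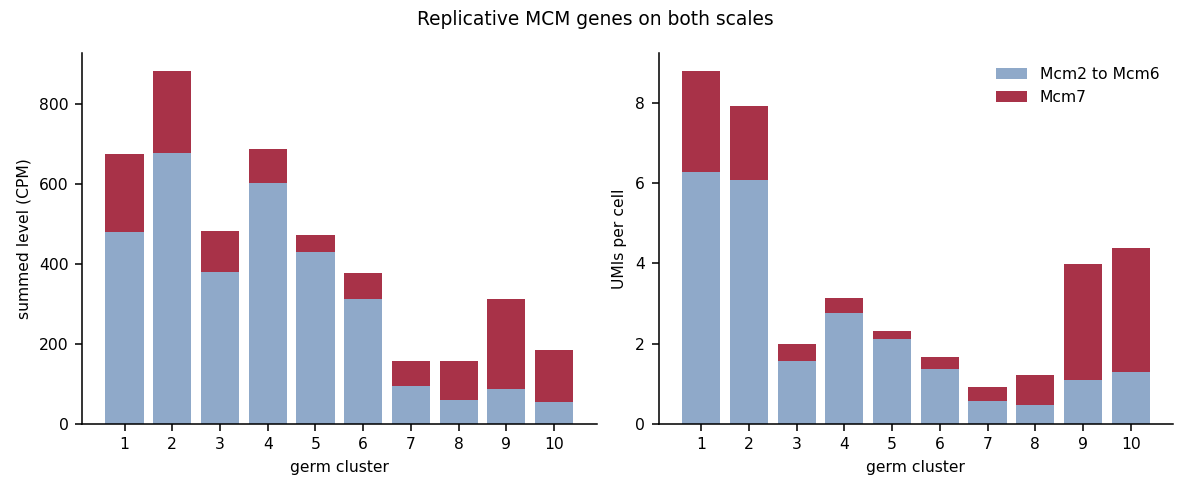
Summed Mcm2 to Mcm7 in the 10 germ clusters (x axis) as CPM (left) and as UMIs per cell (right), with the Mcm7 part in red. By CPM cluster 2 is highest (882), and per cell cluster 1 is highest (8.80) and cluster 10 (4.38) stands above clusters 3 to 9.

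Among the other members, Mcm8 and Mcm9, the recombination pair, had their highest CPM values in the same cluster. Mcm8 had 36.2, 46.1, 44.3 and 62.9 CPM in clusters 1 to 4, 73.8, 96.0, 49.1 and 25.4 in clusters 5 to 8, and 28.1 and 12.2 in clusters 9 and 10. Mcm9 had 37.0, 32.9, 32.4 and 47.7 CPM in clusters 1 to 4, 47.0, 54.8, 41.5 and 23.7 in clusters 5 to 8, and 21.2 and 21.1 in clusters 9 and 10. By CPM both were highest in cluster 6, but the range of Mcm8 was 7.84-fold (5.75 to 10.9) and that of Mcm9 2.60-fold (1.98 to 3.43). For Mcm9, cluster 6 did not differ from the next highest, cluster 4, beyond counting error (ratio 1.15, 0.901 to 1.46). Per cell they did not share a highest cluster. Mcm8 was highest in cluster 1 (0.473 UMIs) and Mcm9 in cluster 10 (0.503), against 0.425 and 0.242 in cluster 6. Mcm10, the firing factor, had 24.8, 21.7, 14.6 and 29.7 CPM in clusters 1 to 4, 19.7, 20.1, 7.15 and 1.27 in clusters 5 to 8, and 5.36 and 4.95 in clusters 9 and 10. Its highest clusters by CPM, 4 and 1, did not differ beyond counting error (ratio 1.20, 0.838 to 1.71), and the low value of cluster 8 rests on 3 UMIs. Per cell Mcm10 was highest in cluster 1, at 0.324 UMIs.

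Mcmdc2 was low in the spermatogonium-like clusters, where the replicative sum was high, and by CPM shared its highest cluster with Mcm7. It had 5.89, 3.0, 5.32 and 8.42 CPM in clusters 1 to 4, 15.2, 12.9, 18.6 and 26.3 in clusters 5 to 8, and 60.8 and 26.8 in clusters 9 and 10. The level in cluster 9 was 20.3 times that in cluster 2 (13.2 to 32.6), from 227 and 23 UMIs. Neighbours in stage from cluster 5 to cluster 8 did not differ beyond counting error, and cluster 9 had 2.32 times the level of cluster 8 (1.74 to 3.12). Per cell Mcmdc2 was at 0.777 UMIs in cluster 9 and 0.640 in cluster 10. Snhg6, which overlaps its 3' end, had 98.4, 67.2, 95.3 and 57.3 CPM in clusters 1 to 4 and 43.4 and 56.7 in clusters 5 and 6. It had 48.3 CPM in cluster 8, 31.9 in cluster 9 and 50.8 in cluster 10. How far this overlap bears on the counts of Mcmdc2 or Snhg6 was not tested.

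Summed over classes, early-prophase-like cells had 0.395 of the replicative level of spermatogonium-like cells (298 against 755 CPM, 0.379 to 0.411). Of the 6 replicative genes, 4 were at least 2-fold lower, Mcm2, Mcm3, Mcm4 and Mcm7, against 29.3% of all genes compared, and none was 2-fold higher. Mcm2 differed most, 9.05 against 120 CPM, and stood at 0.0754 (0.0602 to 0.0935). Of the other 4 members, Mcmdc2 was 3.78-fold higher (2.85 to 5.06; 17.9 against 4.73 CPM), where 13.4% of all genes were 2-fold higher, and Mcm8, Mcm9 and Mcm10 lay within 2-fold. The place of cluster 4 bears on these counts: with it counted as early-prophase-like, the summed ratio was 0.490, Mcm3 no longer passed 2-fold, and Mcm5 stood at 1.19 in place of 0.813. Mcm3 also fell short of 2-fold with 200 genes and 500 UMIs, with 20% mitochondrial UMIs or with doublets kept. The same held with 2000 variable genes, with MCM genes and lists in the clustering or with a naming score of 1. Mcm3 stayed past 2-fold at resolution 2, with equal weight for each cell and by UMIs per cell.

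In pachytene-like against early-prophase-like cells 8 of the 10 members were at least 2-fold lower by CPM, against 26.1% of all genes, and Mcm7 and Mcmdc2 were at least 2-fold higher, against 17.8%. Mcm7 had 177 against 67.1 CPM (ratio 2.64, 2.40 to 2.90) and Mcmdc2 43.6 against 17.9 (2.44, 2.02 to 2.95). Mcm6 differed most downward, 16.8 against 70.9 CPM (0.236, 0.194 to 0.286), and Mcm9 only just passed (0.497, 0.411 to 0.597). Per cell none of the 8 passed 2-fold downward. The median log2 ratio of the 6 replicative genes was -1.43 and that of all genes -0.30. Against spermatogonium-like cells directly, Mcm7 was level by CPM in pachytene-like cells (ratio 1.05, 0.986 to 1.13). The other 5 replicative genes were at least 2-fold lower, where 40.6% of all genes were. Mcmdc2 was 9.21-fold higher (7.1 to 12.1), where 19.4% were. Per cell Mcm7 was higher, at 2.96 against 1.17 UMIs (ratio 2.54). Per-cell ratios of the other 5 ran from 0.0768 for Mcm2 to 0.495 for Mcm5, and that of Mcmdc2 was 22.2.

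The genes that load and fire the helicase did not all share one course. The median log2 ratio of early-prophase-like over spermatogonium-like cells was -0.95 for licensing, -0.09 for firing and -0.85 for fork genes, and -0.24 for all genes. That of pachytene-like over early-prophase-like cells was -0.52, -0.54 and -0.89, against -0.30 for all genes. Of 11 licensing genes, 5 were at least 2-fold lower in early-prophase-like than in spermatogonium-like cells and none higher, where 29.3% of all genes were lower and 13.4% higher. Cdt1, which brings the ring to origins, was lowest, at 1.95 against 48.5 CPM (0.0403, 0.0241 to 0.0634). In pachytene-like against early-prophase-like cells 3 licensing genes were lower and 2 higher, where 26.1% of all genes were lower and 17.8% higher. Orc1, the largest ORC subunit, had 1.85 against 30.3 CPM there, and Lrwd1, an ORC-associated protein, had 224 against 40.3 (5.56-fold, 4.98 to 6.22). Of 13 firing genes, 2 were lower in early prophase, led by Recql4 (0.260, 0.183 to 0.361), and 5 were lower and 1 higher in pachytene-like cells, set against the same shares of all genes (29.3% lower, then 26.1% lower and 17.8% higher). The higher one was Gins1, a GINS subunit, at 77.3 against 31.0 CPM (2.49, 2.16 to 2.87), and the lowest was Wdhd1, a replisome adaptor (0.110, 0.0757 to 0.154).

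Of 27 replication fork genes, 11 were at least 2-fold lower in early-prophase-like cells, among them the clamp loader subunit Rfc5 (0.237, 0.198 to 0.281), against 29.3% of all genes, and none was higher. In pachytene-like cells 12 were lower than in early prophase, against 26.1% of all genes, and none was 2-fold higher. Pola1, the catalytic subunit of the priming polymerase, had 3.04 against 56.2 CPM. Pcna, the sliding clamp, went the other way within 2-fold, 300.0 against 191 CPM (1.57, 1.47 to 1.67), and its highest germ cluster was cluster 10, at 363 CPM. By highest germ cluster on the CPM scale, 16 of the 27 fork genes had it in clusters 2 or 4, as did Mcm2, Mcm3, Mcm4 and Mcm5 of the 6 replicative genes. Lrwd1, Gins1 and Pcna had it in cluster 10 and Mcm7 in cluster 9. Of the licensing and firing genes, 2 of 11 and 1 of 13 also had it in cluster 9, and 1 firing gene had it in cluster 8. The share of all genes with their highest level in these clusters was not computed, so these counts stand without a background.

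**Figure D4:**
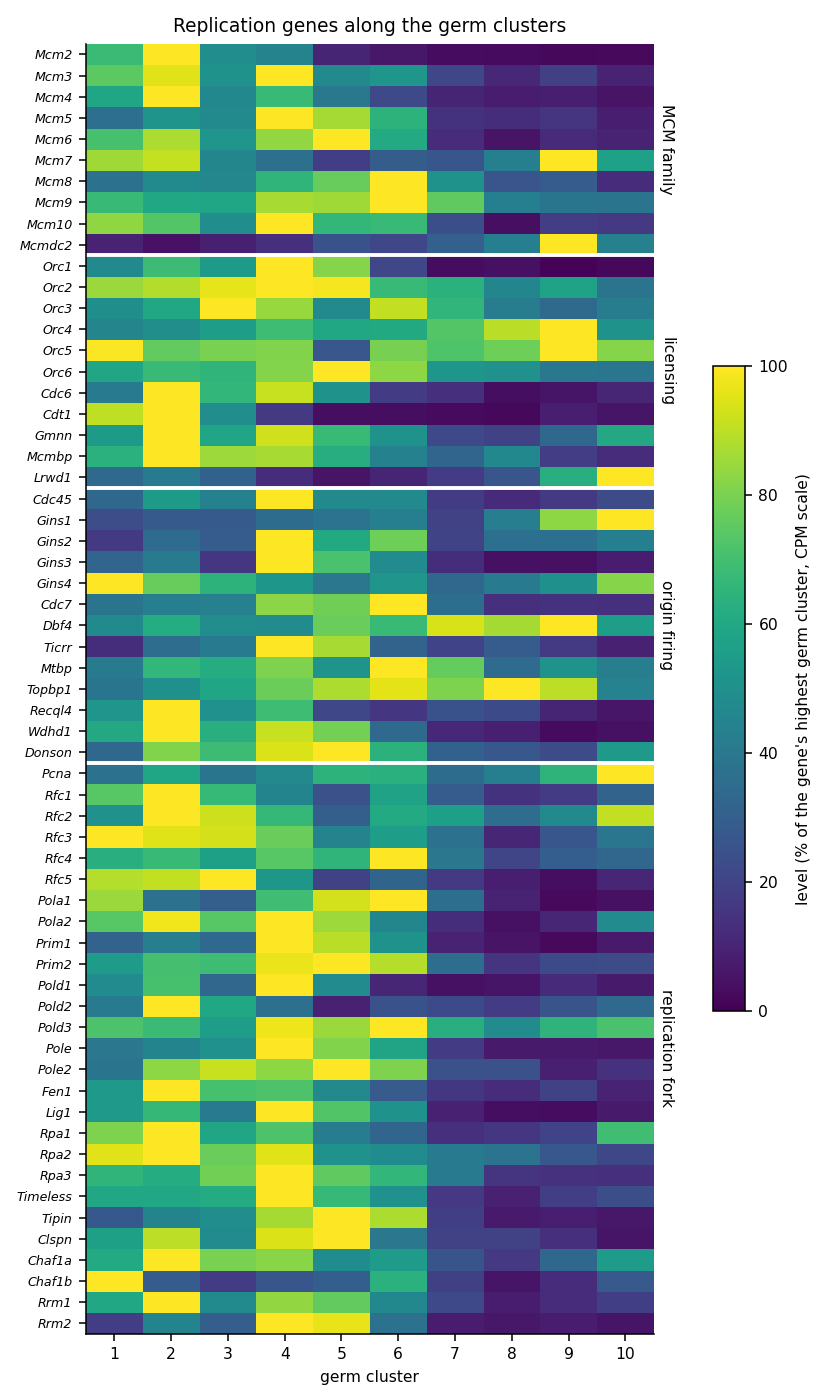
Level of the MCM genes and of the licensing, origin firing and replication fork genes in the 10 germ clusters (x axis), as a percentage of each gene's highest cluster on the CPM scale (colour). Most rows are bright in clusters 2 to 6 and dark in clusters 7 to 10. Some rows, among them Mcm7, Mcmdc2, Lrwd1, Gins1 and Pcna, are bright in clusters 9 or 10.

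Cell cycle genes had medians of -0.58 and -1.09 in these comparisons, and meiotic recombination genes 0.61 and -1.11. Of 18, 8 were at least 2-fold lower and 1 higher in early-prophase-like than in spermatogonium-like cells, against 29.3% and 13.4% of all genes. Tyms, which makes thymidylate, stood at 0.0958 (0.071 to 0.127), and the kinase Cdk1 was 2.84-fold higher (2.67 to 3.02). Mki67, a proliferation marker, had 368 CPM in clusters 5 to 8 together and 46.4 in clusters 9 and 10, and its highest germ cluster was cluster 6 (563 CPM), past the highest clusters of Mcm2 to Mcm6. Of 22 measured meiotic recombination genes, 9 were 2-fold higher and 3 lower in early prophase, against 13.4% and 29.3% of all genes, and Meiob, a strand-binding protein of meiotic recombination, was the highest (18.9-fold, 16.7 to 21.6). From there to pachytene-like cells 14 were lower and 2 higher, against 26.1% and 17.8% of all genes. Mei4, needed for meiotic breaks, was lowest (0.0332, 0.0132 to 0.0693), and Psmc3ip, the HOP2 protein that works with MND1, was the highest (3.10, 2.95 to 3.25). Where a gene of this list, such as Spo11, Dmc1 or Meiob, also served as an early-prophase marker, its high level there follows partly from the naming. The medians and counts of this list in both comparisons, and the Meiob ratio, may therefore not be independent of the naming.

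All 10 members stood at least 2-fold above their somatic-like level in germ-cell-like cells, where 38.7% of all genes were. The replicative genes summed to 496 CPM (489 to 504) and 110 CPM (104 to 115), a ratio of 4.53 (4.31 to 4.77). The ratio was largest for Mcm10, 13.7 (8.48 to 23.7), followed by Mcmdc2, 8.21 (5.78 to 12.0), and smallest for Mcm9, 2.10 (1.83 to 2.42). Mcm9 did not reach 2-fold with each cell weighted equally, with doublets kept and with the mitochondrial limit at 20%.

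RNA freed from germ cells also reaches somatic droplets. As a gauge, 12 germ cell genes stood in somatic-like cells at 7.55% to 12.5% of their germ level (median 8.54%). Mcm10, with 17 somatic UMIs, lay just below that range at 7.29% (4.21 to 11.8), and Mcmdc2, with 33, lay within it at 12.2% (8.31 to 17.3). By type, Mcmdc2 stood at 34.7% (17.8 to 61.0) in Sertoli-like cells on 12 UMIs, where the reference genes ranged from 15.9% to 29.9%. In macrophage-like cells it stood at 24.1% (8.79 to 52.7) on 6 UMIs, against 7.51% to 16.9%. Both intervals reach into the reference range, and the part of freed RNA in these counts was not tested. Mcm5 lay just above the range at 13.3%, with an interval (10.9 to 16) that reaches into it. The other 7 lay above it, from 16.9% for Mcm3 (14.7 to 19.4) to 33.8% for Mcm2 (29.9 to 38.2) and 47.5% for Mcm9 (41.2 to 54.6).

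**Figure D5:**
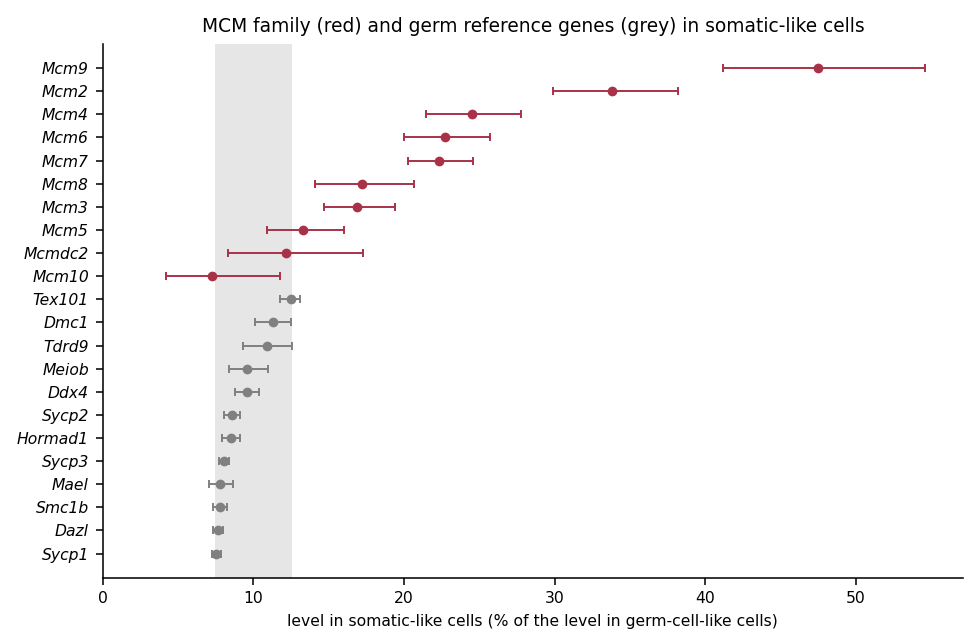
Level in somatic-like cells as a percentage of the level in germ-cell-like cells (x axis, with 95% intervals) for the 10 MCM genes (red) and 12 germ cell reference genes (grey; the shaded band spans them). Mcmdc2 lies in the band of 7.55% to 12.5%, Mcm10 lies just below it at 7.29%, and Mcm2 and Mcm9 lie farthest above it.

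Somatic types differed in their replicative sum, from 82.8 CPM (71.7 to 95.3) in peritubular myoid or pericyte-like cells and 99.1 (92.5 to 106) in Leydig-like cells to 117 (99.7 to 136) in macrophage-like cells, 139 (110 to 172) in interstitial stroma-like cells, 164 (124 to 213) in endothelial-like cells and 165 (147 to 184) in Sertoli-like cells. Each type's interval overlaps that of its neighbour in this order. Clusters within a type could differ beyond counting error. The replicative sum was 201 CPM (176 to 229) in a Sertoli-like cluster of 172 cells and 115 (92.9 to 141) in the other, of 111 cells. The place of Sertoli-like cells in this order thus rests on the first of these clusters. The 15 lymphocyte-like cells held 3 such UMIs. The germ reference was also highest in Sertoli-like cells, at 15.9% to 29.9% of the germ level, against 4.29% to 8.80% in Leydig-like cells; its part in the Sertoli-like sum was not tested. Mcm2 in Leydig-like cells, at 24.1 CPM (20.9 to 27.6), stood at 40.9% of its germ level (35.2 to 47.2), above that range. So did the other members there except Mcm10 (6.14%) and Mcmdc2 (4.62%), though the interval of Mcm5 (7.91 to 14.0) reached into the range. Mcm2 stood about as high in interstitial stroma-like cells (43.0%, 24.0 to 71.2) and endothelial-like cells (39.8%, 17.2 to 78.7). Mcm9 in Sertoli-like cells, at 34.6 CPM (26.8 to 44.0), equalled its germ level of 34.5 CPM. It had 41.1 CPM (30.1 to 54.9) in the Sertoli-like cluster of 172 cells and 25.7 (15.9 to 39.3) in that of 111. The part of freed germ cell RNA in this Mcm9 level was not tested. In endothelial-like cells Mcm8, Mcm10 and Mcmdc2 had 0 UMIs of 340716, which allows up to 8.80 CPM.

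Shares of cells with a UMI depend on depth as well as on level. Without thinning, 90.4% of spermatogonium-like, 72.1% of early-prophase-like, 89.4% of pachytene-like and 37.2% of somatic-like cells had a UMI of at least 1 replicative gene. With each cell thinned to 2000 UMIs, which left out 132, 43, 4 and 355 cells, the shares were 73.2% (71.2 to 75.1), 44.6% (42.3 to 47.0), 38.3% (33.8 to 43.0) and 17.9% (16.4 to 19.5). At least 3 of the 6 genes were then found in 11.6% of spermatogonium-like cells (10.2 to 13.1), 2.16% of early-prophase-like cells (1.53 to 2.95) and 2 of 449 pachytene-like cells. Mcm7 alone was found in 23.8%, 11.7% and 28.3% of the 3 classes, and Mcmdc2 in 1.0%, 3.13% and 8.24%. In somatic-like cells Mcm7 was found in 5.14% and Mcmdc2 in 0.300%.

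Over the 19 named clusters of at least 50 cells, which share 1 library and differ in depth, the profiles most like each member's were picked among 10008 genes by Pearson's r of log2(CPM + 1). For the replicative sum they included Fen1, the flap endonuclease of the fork (0.936), and Dhx15, a splicing helicase (0.923). For Mcm8 they were Tasp1 (0.944), Eif4enif1 (0.927) and Zkscan2 (0.922), and for Mcm9 Gm37240 (0.928), Gm45194 (0.924) and Mios (0.923). For Mcm10 they included Psmg1 (0.944) and Nup133 (0.939), and for Mcmdc2 they were Kbtbd6 (0.953), Hectd2 (0.917) and Ica1l (0.911).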

How the data were processed

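For the knockout at day 35 the authors deposited a matrix of whole-number UMI counts, 1 row per gene and 1 column per barcode, whose header names Cell Ranger 7.1.0, per the file headers. STAR and mm10 are listed as well, per the submitters' processing notes. The sources used here do not state how cells were called from barcodes or whether introns or strand were used in counting. The deposited barcode and feature lists of the 4 libraries carry no measured values.

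Of 15306 barcodes, 8121 passed a minimum of 500 genes and 1000 UMIs and a mitochondrial limit of 10%. A limit of 5% haemoglobin UMIs removed 4 cells, and Scrublet removed 263 as doublets. Free RNA was not subtracted. The members, the genes of the 5 lists and the X-linked, Y-linked and mitochondrial genes (together 1921) did not enter the clustering, which used 3000 variable genes, 30 principal components, 15 neighbours and Leiden resolution 1 (scanpy 1.11.5, leidenalg 0.10.2, Python 3.11.15). Clusters were named by the best mean log2 marker score if it was at least 0.75, led the next by 0.25 (not asked between germ stages) and rested on at least 3 markers at 2-fold; clusters with a median UMI count under that of all cells divided by 3 stayed unnamed. The haemoglobin limit and this scoring were settled after clusters had been seen, and names rest on rebuilt clusters. Germ clusters were ordered by their pachytene score minus the mean of the spermatogonium scores.

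Summed UMIs became CPM, with 95% intervals that are exact Poisson for levels, conditional binomial for ratios and Clopper-Pearson for shares, and a count of 0 allows up to 3 counts. A gene was compared with at least 20 UMIs over both classes. Beside all members and Znhit1, Mki67, Pcna and Stra8, the text names the highest and lowest gene past 2-fold of each list in each comparison, and the 3 most alike profiles among genes with at least 500 UMIs; some genes this rule took are not reported here. Cops6, Snhg6 and the leading genes of clusters were added after values were seen. The members and lists were chosen with earlier results of these data known. The ratio step was tested on simulated counts. Alternatives are given with the closing observations.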

Additional observations from a re-analysis of the deposited data

Results flagged for a closer look

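Replicative MCM counts also lay outside the cells compared. The 7452 deposited barcodes that were not used, most of them shallow or rich in mitochondrial UMIs, held 4939 UMIs of Mcm2 to Mcm7, or 207 CPM (201 to 213), above the limit that a count of 0 allows. The 781 cells of the unnamed clusters held 354 such UMIs, or 260.0 CPM (234 to 289). No class was given to either set, and neither enters a comparison.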

How the results depend on the processing

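The ratio of early-prophase-like to spermatogonium-like cells for Mcm2 to Mcm7 (0.395) stayed below 1 under every alternative run. It was 0.498 with 200 genes and 500 UMIs, 0.507 with 20% mitochondrial UMIs, 0.491 with doublets kept, 0.447 at resolution 2, 0.492 with 2000 variable genes, 0.553 with MCM genes and lists in the clustering and 0.452 with equal weight for each cell. With choices made after seeing the data it was 0.490 with germ cluster 4 counted as early-prophase-like, 0.446 with a naming score of 1 and 0.307 by UMIs per cell. The ratio of pachytene-like to early-prophase-like cells (0.830) was, in the same order, 0.651, 0.637, 0.663, 0.715, 0.654 and 0.533, and 0.813 with equal weight. It was 0.656 with cluster 4 moved and 0.721 with a naming score of 1, and it reversed to 2.57 by UMIs per cell, since pachytene-like cells hold more UMIs. The germ-to-somatic ratio (4.53) was 3.84 with 200 genes and 500 UMIs, 5.30 with 20% mitochondrial UMIs, 3.85 with doublets kept and 5.89 per cell, and 4.51 to 4.71 otherwise. That of Mcmdc2 (8.21) lay between 6.23 and 10.7. With 200 genes and 500 UMIs Scrublet called 0 doublets, so the caller did not work there.

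Of 252 ratios of single members under 9 alternatives on the CPM scale, 141 stayed inside the interval of the main ratio. A further 103 lay outside it without reversing, so these intervals, which cover counting error only, do not cover the choice of processing. The remaining 8 reversed, all of Mcm5 between early-prophase-like and spermatogonium-like cells (0.813). It was 1.19 with 200 genes and 500 UMIs, with 2000 variable genes and with cluster 4 moved, 1.25 with 20% mitochondrial UMIs, 1.17 with doublets kept, 1.04 at resolution 2, 1.40 with lists in the clustering and 1.18 with a naming score of 1. Per cell, Mcm9 reversed to 0.920 in that comparison, and Mcm2, Mcm3, Mcm4, Mcm9 and Mcm10 to 1.31, 1.27, 1.03, 1.54 and 1.26 between pachytene-like and early-prophase-like cells. These per-cell ratios have no interval, and 0.920 for Mcm9 and 1.03 for Mcm4 lay near 1. No paired analysis was possible because counts of 1 library were used. Depth limits Mcm10 and Mcmdc2 in somatic-like cells, with 17 and 33 UMIs.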
